A study of Mus musculus with 5 samples.

Results

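The cells described here are 467 of the 1701 kept cells of a library from mouse epiblast stem cells (EpiSCs) treated with the FGF receptor inhibitor AZD4547 (FGFRi), and of the 10653 kept cells of 5 libraries. They were chosen by their own counts of unique molecular identifiers (UMIs), with at least 2 UMIs of Cdh1 (E-cadherin), 0 of Cdh2 (N-cadherin) and 0 of Cdx2, and are called E-cadherin-gated cells. They made up 27.5% of the kept cells of this library (exact binomial interval 25.3% to 29.6%). All 5 cultures were grown for 3 days in N2B27 medium with 1 µM of the GSK3 inhibitor CHIR99201, which activates Wnt signaling, and 8 ng/ml BMP. Of these, 1 received 30 nM AZD4547, with no FGF2 dose given, and 4 received FGF2 at 0, 0.75, 3 or 12 ng/ml. The labels give 1 line of EpiSCs, which are pluripotent cells derived from the epiblast after implantation, and 1 library per condition. Counts from droplet-based 3′ sequencing were summed over the cells of a group and scaled to the total of the group, as CPM (10000 CPM correspond to 1% of the UMIs of a group). Levels are given with exact Poisson 95% intervals, ratios with exact conditional intervals and shares of cells with exact binomial intervals, all of which cover counting error only. Since cells are not replicates and the gate used the measured counts, the differences between groups of cells are descriptions and no test was made.

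E-cadherin is the calcium-dependent adhesion molecule of epithelial adherens junctions, and its cytoplasmic tail binds β-catenin and p120-catenin. During an epithelial-to-mesenchymal transition, as at gastrulation, cells lose E-cadherin and apical junctions and gain N-cadherin, vimentin and fibrillar collagens, under repressors such as Snail, Zeb and Twist factors that bind E-box motifs. BMP signaling in ectoderm favors surface ectoderm, the precursor of the epidermis, which is marked by Tfap2a, p63 (Trp63) and keratins. Cdx2 is a homeodomain factor of posterior embryonic tissue and of trophoblast, and it was used in the gate only as a cell to leave out.

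The gated cells held 13699131 UMIs and the 1234 other kept cells of the library 34125529 UMIs. Their median depth was 25797 UMIs and 5166 genes per cell, against 23955 UMIs and 4936 genes for the other kept cells. Cdh1 (chromosome 8) was found at a median of 4 UMIs per gated cell (range 2 to 28) and summed to 190 CPM, against 44.1 CPM in the other kept cells, and these values were set by the gate. The other kept cells comprised 468 cells with at least 2 Cdh2 UMIs and no Cdh1 or Cdx2 UMI (N-cadherin cells, median 24240 UMIs), 125 cells with at least 2 UMIs of each cadherin and no Cdx2 UMI, 132 cells with a Cdx2 UMI, and 509 remaining cells in none of these groups, among them 79 cells with at least 2 Cdh1 UMIs and 1 Cdh2 UMI. Cells with both cadherins were deeper, with a median of 35142 UMIs, and no doublet caller was run. Of the kept barcodes of the series, 7 occurred in more than 1 library, and 2 of these were gated cells.

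The 99 gated cells with 2 Cdh1 UMIs had 469.5 CPM of Epcam, 804 CPM of Krt8, 237 CPM of Vim and 10.9 CPM of Twist1. The 111 cells just outside, with 1 Cdh1 UMI and no Cdh2 or Cdx2 UMI, had 467 CPM of Epcam, 635 CPM of Krt8, 392.3 CPM of Vim and 25.9 CPM of Twist1. The 227 gated cells with 5 or more Cdh1 UMIs had 505 CPM of Epcam, 2503 CPM of Krt8, 146 CPM of Vim and 6.03 CPM of Twist1, at a median depth of 31317 UMIs against 20515 for those with 2. The 141 gated cells with 3 or 4 Cdh1 UMIs had 491 CPM of Epcam, 995 CPM of Krt8, 443 CPM of Vim and 12.1 CPM of Twist1. Epcam was thus alike on both sides of the limit and Twist1 was higher outside it, while Vim followed no order over these groups. Among cells with at least 2 Cdh1 UMIs, the 79 with 1 Cdh2 UMI had 665 CPM of Vim and the 22 with 1 Cdx2 UMI had 147 CPM.

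The gated cells had higher levels of junction, keratin and surface ectoderm genes, and lower levels of mesenchyme genes and of the factors of the epithelial-to-mesenchymal transition. Genes with at least 50 CPM in either group and a ratio of at least 2 were counted as a rule of size. Of 3174 genes, 63 were higher in the gated cells (1.98%) and 55 were lower (1.73%). With the minimum at 10 CPM, used here for gene lists, 197 of 8359 genes were higher (2.36%) and 207 lower (2.48%). The median log2 ratio of the 3174 genes was -0.01, and that of the 8359 genes was 0.02, so levels are compared without further scaling. Of the 507 genes in 44 lists of pathway and cell type genes, 294 reached 10 CPM, and 52 of these were higher and 46 lower. Because the gate itself separates epithelial from mesenchymal cells, these shares are read only as a description of what went with it.

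**Figure D1:**
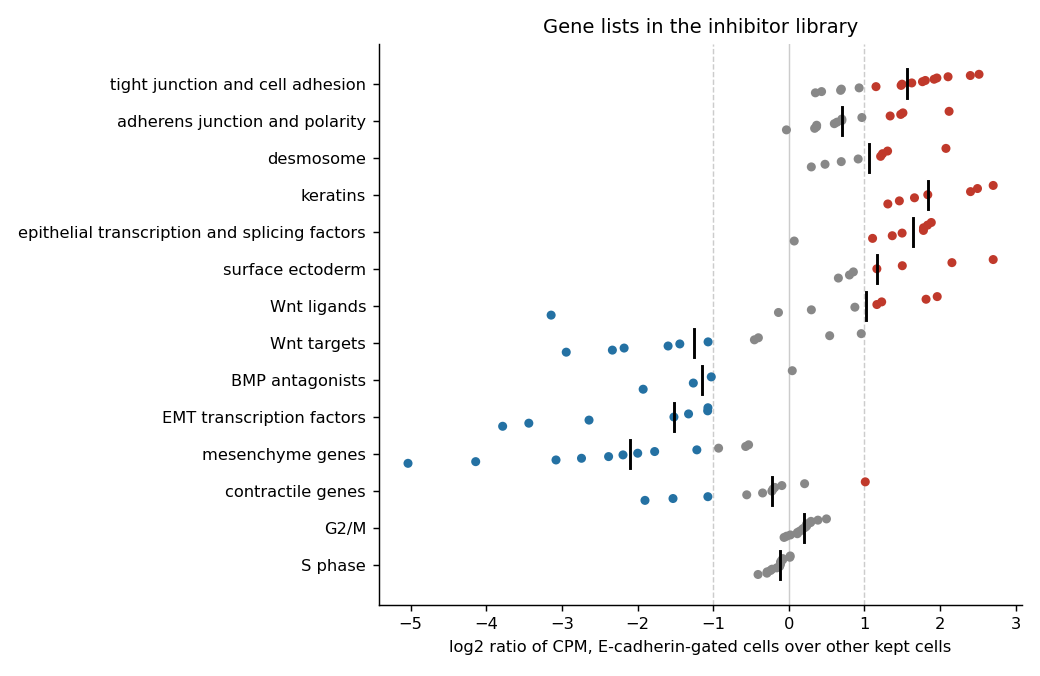
Log2 ratio of CPM between the E-cadherin-gated cells and the other kept cells of the FGFRi library (x axis) for each gene with at least 10 CPM in 14 gene lists (y axis). Points are genes, colored red when at least 2-fold higher and blue when at least 2-fold lower in gated cells, dashed lines mark a 2-fold ratio and black bars the median of a list; the medians run from 1.84 for keratins to -2.09 for mesenchyme genes.

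Of 16 tight junction and cell adhesion genes at 10 CPM or more, 11 were at least 2-fold higher in the gated cells and none was lower, with a median log2 ratio of 1.56. Epcam (chromosome 17, 87635979 to 87651129, GRCm38), an epithelial adhesion protein that stabilizes claudins, was at 496 CPM (484 to 508), against 175 CPM (171 to 180) in the other kept cells. The largest ratio of the 3174 genes was that of Cldn7 (chromosome 11, 69964779 to 69967885), which encodes a claudin of the tight junction strand. Cldn7 was at 132 CPM (126 to 138) in gated cells and 24.97 CPM (23.3 to 26.7) in the other kept cells, a ratio of 5.29 (4.87 to 5.74). Cldn6 (chromosome 17, 23679249 to 23682446), a claudin of embryonic epithelia, was at 212 CPM against 60.5 CPM. Cldn4 was lower in level, with 29.9 CPM against 6.94 CPM. Rab25, a GTPase of epithelial recycling endosomes, was at 19.1 CPM against 3.34 CPM, with a ratio of 5.73 (4.58 to 7.20). The scaffold protein gene Tjp1, whose product also lines junctions of non-epithelial cells, differed by less than 2-fold, with a ratio of 1.62. Cldn12, at 10.3 CPM against 8.06 CPM, did not pass 2-fold either.

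The bases before the RefSeq start of 6 of these epithelial genes are printed to show the sequences on which E-box repressors of the Snail and Zeb type are known to act. They were taken from RefSeq on GRCm38.p6, and each line is read 5′ to 3′ on the strand of the gene, with annotated exons left out. Capitals mark CACCTG, which reads CAGGTG on the other strand.
Epcam, chr17:87635729-87635978, plus strand: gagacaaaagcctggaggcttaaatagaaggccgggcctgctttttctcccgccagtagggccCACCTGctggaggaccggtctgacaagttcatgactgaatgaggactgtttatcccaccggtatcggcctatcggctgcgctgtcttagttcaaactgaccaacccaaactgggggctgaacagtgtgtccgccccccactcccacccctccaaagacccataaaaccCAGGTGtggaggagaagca
Cldn4, chr5:134946935-134947184, minus strand: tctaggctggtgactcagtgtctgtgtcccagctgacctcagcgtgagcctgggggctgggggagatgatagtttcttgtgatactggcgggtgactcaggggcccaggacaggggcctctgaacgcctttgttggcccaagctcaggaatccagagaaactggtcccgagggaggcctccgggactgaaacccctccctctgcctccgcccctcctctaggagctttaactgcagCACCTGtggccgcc
Crb3, chr17:57061951-57062140, plus strand, ending 60 bases before the start: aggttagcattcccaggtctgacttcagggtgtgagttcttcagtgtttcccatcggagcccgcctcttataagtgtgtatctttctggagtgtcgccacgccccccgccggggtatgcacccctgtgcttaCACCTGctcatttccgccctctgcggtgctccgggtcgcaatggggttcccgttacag
Rab25, chr3:88548301-88548529, minus strand, ending 21 bases before the start: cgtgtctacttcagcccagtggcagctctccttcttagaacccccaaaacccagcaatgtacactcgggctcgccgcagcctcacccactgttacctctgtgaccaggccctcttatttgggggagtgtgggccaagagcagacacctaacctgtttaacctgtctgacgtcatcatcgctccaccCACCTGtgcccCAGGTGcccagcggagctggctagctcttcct
Krt18, chr15:102027966-102028179, plus strand, ending 36 bases before the start: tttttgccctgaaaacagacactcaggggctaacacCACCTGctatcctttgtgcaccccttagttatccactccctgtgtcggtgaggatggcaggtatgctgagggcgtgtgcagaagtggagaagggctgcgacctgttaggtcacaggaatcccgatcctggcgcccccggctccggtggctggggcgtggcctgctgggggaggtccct
Sfn, chr4:133602169-133602418, minus strand: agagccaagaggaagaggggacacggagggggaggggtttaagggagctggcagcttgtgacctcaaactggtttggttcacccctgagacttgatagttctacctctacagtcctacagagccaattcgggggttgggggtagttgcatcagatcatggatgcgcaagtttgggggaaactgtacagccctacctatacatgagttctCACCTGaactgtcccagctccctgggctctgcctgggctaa
The Epcam and Rab25 sequences each hold 2 matches, and those of Rab25 lie 11 bases apart. The RefSeq start used for Crb3 lies inside the longer gene that GENCODE annotates (57059105 to 57065918), so that this window is not upstream of the whole gene. Cdh1, Trp63, Krt17, Esrp1, Grhl2 and Ovol1 have no entry.

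CACCTG was searched on both strands in the 250 bases before each start, and it was found for 5252 of 27025 genes with an entry (19.4%). It was found for 10 of 17 tight junction and cell adhesion genes with an entry (58.8%) and for 5 of 7 keratins with an entry. Genes of these lists were searched at any level. Among those with the motif, Krt5 and Krt23 were below 10 CPM and Ap1m2 had 1 UMI in gated cells. Krt15, Krt17 and Krt19, which were higher in gated cells, had no entry. Of the mesenchyme genes with an entry, 0 of 12 had it, and of the transition factors 1 of 6. Of the 15 genes with the largest ratios upward, 13 had an entry and 8 of these held the motif, and of the 10 with the lowest ratios, 8 had an entry and 1 held it. AACCGGTT, the binding sequence of Grainyhead factors, was found for 0.137% of genes and in none of these lists, apart from Mt2 among the 15 highest. GCCNNNGGC, bound by Tfap2 factors, was found for 15.4% of genes, 5 of the 17 tight junction genes, 2 of the 7 keratins, 4 of the 12 mesenchyme genes and 4 of the 6 transition factors. A match is a description of the letters in these windows and not of binding.

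The other junction lists differed in the same direction with smaller ratios. Of 13 adherens junction and polarity genes, 4 were at least 2-fold higher and none was lower (median log2 ratio 0.70). Crb3, an apical polarity protein, was at 63.4 CPM (59.2 to 67.7) against 14.6 CPM, and Llgl2, Prkcz and Pard6b, further polarity genes, were higher by 2.53-, 2.85- and 2.79-fold. β-catenin (Ctnnb1), which serves junctions and Wnt signaling alike, was at 271 CPM against 277 CPM. The catenins bound to E-cadherin differed little, with ratios of 1.56 for Ctnna1 and 1.29 for Ctnnd1. Of 8 desmosome genes, 4 were higher (median 1.07), with Ppl (periplakin) at 81.4 CPM against 19.3 CPM and Dsp (desmoplakin) at 334 CPM against 141 CPM.

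All 7 keratins at 10 CPM or more were at least 2-fold higher in the gated cells, and the keratin list summed to 4530 CPM against 1540 CPM. Krt8 (chromosome 15), a keratin of simple epithelia, was at 1840 CPM (1817 to 1863) against 581 CPM (573 to 589). Krt18, its partner in the filament, was at 2476 CPM against 898 CPM. The keratins of stratified epithelia had lower levels and larger ratios. Krt14 (chromosome 11, 100203162 to 100207548), expressed by basal keratinocytes, was at 26.9 CPM (24.3 to 29.8) against 4.13 CPM (3.48 to 4.87), a ratio of 6.52. Krt17, a keratin of embryonic and injured epidermis, was at 30.7 CPM against 5.80 CPM, and Krt15 at 15.5 CPM against 2.75 CPM. A few cells carried most of these UMIs, since the 23 gated cells with the most UMIs of a gene held 68.6% of the Krt14, 67.9% of the Krt17 and 80.3% of the Krt15 UMIs. For comparison, the 23 highest cells held 31.0% of the Krt8 UMIs and 18.5% of the Cldn6 UMIs. Krt5, the usual partner of Krt14, was at 3.87 CPM, below the minimum for the list. The ratio of Krt15 depended on the gate, and was below 2 when the gate was applied after thinning each cell to 10000 UMIs (log2 ratio 0.44 instead of 2.50).

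Epithelial transcription and splicing factors were higher for 7 of 8 genes (median log2 ratio 1.64). Grhl2 (chromosome 15, 37233036 to 37363569), a Grainyhead factor that activates junction genes, was at 26.4 CPM against 7.15 CPM. Esrp1 and Esrp2, which direct epithelial splicing, were at 40.5 and 20.9 CPM against 11.8 and 6.07 CPM. Klf5, a factor of proliferating epithelia, was at 74.1 CPM against 34.3 CPM. Klf4 was at 15.8 CPM in gated cells and 15.1 CPM in the other kept cells.

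Of 7 surface ectoderm genes at 10 CPM or more, 4 were at least 2-fold higher and none was lower (median log2 ratio 1.17), and Wnt6 was the most abundant. Trp63 (chromosome 16, 25683763 to 25892102), which encodes the regulator of stratified epithelium p63, was at 49.9 CPM (46.2 to 53.7) against 11.2 CPM (10.1 to 12.3). The ratio of Trp63 was 4.47 (3.93 to 5.08). Tfap2c was at 38.7 CPM against 13.7 CPM. Tfap2a (chromosome 13, 40715302 to 40738376) was detected more evenly, at 134 CPM against 76.9 CPM, with a ratio of 1.75 (1.64 to 1.85). Dlx3 and Gata3 were also below 2-fold, with ratios of 1.81 and 1.58. Dlx5 and Eya1, genes of the border and placode regions of the ectoderm, were at 2.12 and 1.68 CPM, and Dlx6 had no UMI.

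**Figure D2:**
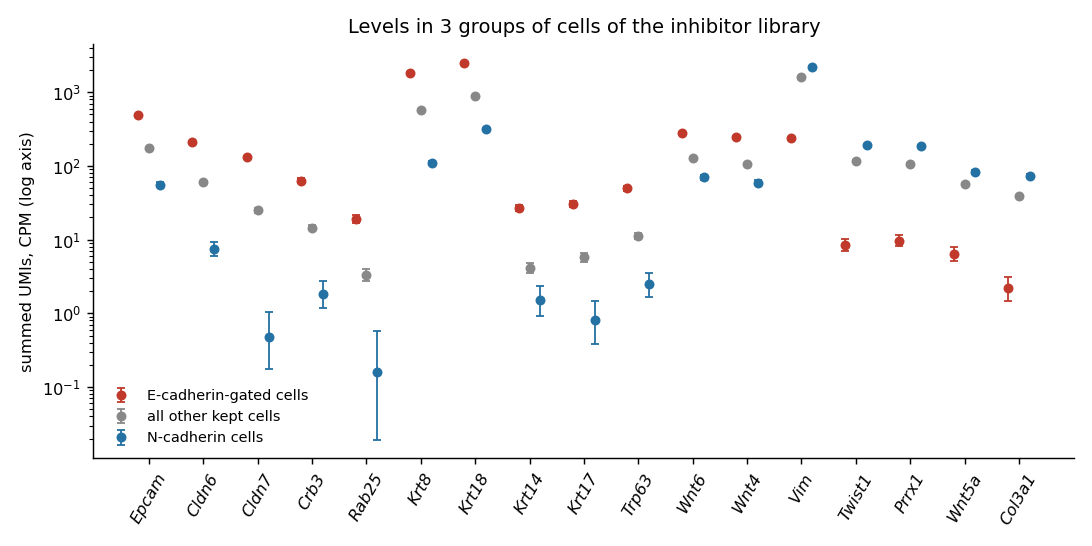
Summed level in CPM (log axis) of 17 genes (x axis) in the 467 E-cadherin-gated cells, the 1234 other kept cells and the 468 N-cadherin cells of the FGFRi library, with exact Poisson 95% intervals. The junction, keratin and ectoderm genes are highest in gated cells and lowest in N-cadherin cells, as for Cldn7 at 132 and 0.481 CPM, and the order is the opposite for Vim, Twist1, Prrx1, Wnt5a and Col3a1.

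All 7 factors of the epithelial-to-mesenchymal transition at 10 CPM or more were at least 2-fold lower in the gated cells (median log2 ratio -1.52). Twist1 (chromosome 12, 33957671 to 33959829), a basic helix-loop-helix factor of mesenchyme, was at 8.39 CPM (6.93 to 10.1) against 116 CPM (112 to 119). The level of Twist1 was thus 13.8-fold lower. Prrx1 (chromosome 1, 163245119 to 163313710), a homeobox factor of limb and lateral mesenchyme, was 10.8-fold lower at 9.71 CPM against 105.2 CPM. Zeb1 and Zeb2, repressors of E-cadherin, were at 6.06 and 26.7 CPM against 37.8 and 66.9 CPM. Snai2 was low in both groups, with 7.81 CPM against 16.4 CPM.

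Of 12 mesenchyme genes, 9 were at least 2-fold lower and none was higher (median log2 ratio -2.09). Vim (chromosome 2, 13573927 to 13582826), the intermediate filament protein of mesenchyme, was at 238 CPM (230 to 246) against 1590 CPM (1577 to 1604) and thus 6.68-fold lower. The fibrillar collagen genes Col1a1 and Col3a1 were at 1.02 and 2.19 CPM against 33.5 and 38.6 CPM. The lowest ratio among genes with at least 50 CPM was that of Mfap4, an elastic fiber protein, at 3.21 CPM against 57.6 CPM. Also among the 10 lowest, beside Twist1, Prrx1, Vim and Wnt5a, were Spp1 (osteopontin), the Wnt regulator Dkk2, Serpinf1, Igfbp4 and the myelin and membrane protein Pmp22, which were 11.8-, 6.15-, 6.02-, 5.98- and 5.21-fold lower. Sparc and Fn1, secreted matrix proteins that epithelia can also make, differed less, with ratios of 0.674 and 0.692. Among genes with 10 to 50 CPM in the higher group, Vegfc had 2 UMIs in all gated cells (ratio 0.0103, interval 0.00125 to 0.0375).

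The contractile genes were split. Acta2 (smooth muscle actin) was at 429 CPM (418 to 440) against 1240 CPM (1229 to 1252), Actc1 was 3.74-fold lower and Cnn1 2.10-fold lower. Acta1, skeletal muscle actin, was 2.02-fold higher at 187 CPM against 92.7 CPM. Tagln and Tpm1 were abundant in both groups, at 1605 and 3437 CPM in gated cells against 2039 and 3974 CPM, and the median log2 ratio of the 11 genes was -0.22. Part of the gated cells carried these levels, since the median was 0.225 UMIs of Acta2 and 1.98 UMIs of Tagln per 10000 UMIs, and 47.5% and 28.1% of gated cells had no UMI of them.

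Among the listed Wnt genes that passed 2-fold, most ligands were higher in gated cells and all targets were lower. Of 8 Wnt ligands, Wnt4, Wnt6, Wnt7a and Wnt10a, known from epithelia, were at least 2-fold higher and Wnt5a, known from mesenchyme, was lower. Wnt6 (chromosome 1, 74771892 to 74785322) was at 284 CPM (275 to 293) against 126 CPM and Wnt4 at 246 CPM (238 to 254) against 104.9 CPM. Wnt5a was at 6.42 CPM against 56.7 CPM, and was 8.83-fold lower. Of 10 Wnt target genes, 6 were lower and none was higher (median log2 ratio -1.25). Axin2, Lef1, Notum and Nkd1, feedback and effector genes induced by β-catenin, were at 24.8, 22.9, 9.05 and 5.47 CPM against 52.0, 69.3, 40.9 and 27.6 CPM. Rnf43 and Znrf3, ubiquitin ligases that act on Wnt receptors, had ratios of 1.94 and 1.46. Every culture of the series contained the same dose of CHIR99201.

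None of the listed BMP ligands, antagonists, receptors and targets at 10 CPM or more was at least 2-fold higher. Sostdc1, an inhibitor of BMP and Wnt signaling outside these lists, was higher and is described below. Bmp4 (chromosome 14, 46383520 to 46390669) was at 34.6 CPM (31.6 to 37.9) against 107 CPM, and Bmp2 at 46.7 CPM against 111 CPM. Of 4 BMP antagonists, Nog, Fst and Fstl1 were at least 2-fold lower. None of 5 BMP receptors passed the rule, with a median log2 ratio of 0.10. Of 7 BMP targets, Msx1 was lower by 3.76-fold, and the targets Id1 and Id3 had ratios of 0.626 and 0.656.

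Among the FGF receptors, Fgfr2, whose epithelial isoform answers to mesenchymal ligands, was at 44.7 CPM (41.2 to 48.4) against 19.5 CPM. Fgfr1 was at 37.6 CPM against 62.7 CPM, a ratio of 0.599 (0.543 to 0.660). No FGF ligand reached 10 CPM, and the 11 ligands summed to 4.23 CPM in gated cells. None of 5 FGF and ERK targets passed the rule, and their median log2 ratio was -0.74, with Spry2 at 19.9 CPM against 25.9 CPM. The EGF receptor family members Erbb2 and Erbb3 were higher by 2.07- and 3.64-fold. Notch1, a receptor of basal epidermis, was at 79.1 CPM against 25.9 CPM, and the other 4 genes of the Notch pathway at 10 CPM or more did not pass the rule. The sequencing reads of this kit come from the 3′ end, so that isoforms of Fgfr2 cannot be told apart.

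S phase and G2/M genes differed little between the groups, whereas several CDK inhibitors and D cyclins were lower in gated cells. None of 15 S phase genes and none of 16 G2/M genes passed the rule, with median log2 ratios of -0.12 and 0.20. The CDK inhibitors Cdkn1a and Cdkn2a were at 180 and 171 CPM in gated cells against 391 and 428 CPM. Of 11 p53 targets, Cdkn1a and Eda2r were at least 2-fold lower, and all 11 had a ratio under 1 (median log2 ratio -0.62). Ccnd1 and Ccnd2, the D cyclins, were at 15.3 and 96.2 CPM against 35.1 and 192 CPM, and Ccnd1 passed the rule.

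Several of the largest ratios belonged to genes outside junctions and keratins. The metallothioneins Mt1 and Mt2, which bind zinc and copper, were at 1156 and 774 CPM against 326 and 200 CPM. Sostdc1, a secreted inhibitor of BMP and Wnt signaling in ectodermal organs, was at 50.5 CPM (46.8 to 54.4) against 10.96 CPM. Sfn (stratifin), a gene of keratinocytes, was at 68.3 CPM against 16.2 CPM, with 63.2% of its UMIs in the 23 highest gated cells. Mal was at 58.3 CPM against 15.7 CPM, the gap junction gene Gjb2 at 53.8 CPM against 14.9 CPM, and 3830417A13Rik at 90.4 CPM against 23.1 CPM. Slc2a3, a glucose transporter, was at 1304 CPM against 462 CPM, and was the only 1 of 14 glycolysis genes past 2-fold. Igfbp2, a secreted binding protein of insulin-like growth factors, was at 2331 CPM against 1084 CPM. Between 10 and 50 CPM, the highest ratios after the keratins and Rab25 were those of Fxyd3 (5.197), Macc1 (5.02), Dock8 (4.98), Rbm47 (4.83), Nppa (4.68) and Upk3bl (4.51). The 23 highest gated cells held 87.2% of the Nppa UMIs. Sct (secretin) had a ratio of 4.62, but 75.7% of its UMIs in gated cells came from 16 cells of a small cluster.

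Several defining markers of other cell types had no UMI in gated cells, and some of these had none in N-cadherin cells either. The 15 genes of the extraembryonic ectoderm and trophoblast list summed to 258 CPM against 262 CPM, with Peg10 as the most abundant. Eomes, Gcm1, Tpbpa and Prl3d1 had no UMI in gated cells. In N-cadherin cells, Gcm1, Tpbpa and Prl3d1 had no UMI either and Eomes was at 0.160 CPM. Of 12 endoderm genes, none reached 10 CPM, they summed to 2.26 CPM against 9.49 CPM, and Hnf4a, Cer1, Ttr, Spink1 and Trh had no UMI in gated cells. The 11 genes of the primitive streak and nascent mesoderm summed to 60.2 CPM against 55.9 CPM. Of these 11 genes, only Wnt3 reached 10 CPM, and Eomes, Mesp1, Gsc and Msgn1 had no UMI in gated cells. The 8 hemato-endothelial genes summed to 84.7 CPM against 243 CPM. In gated cells Runx1 made up 81.5 CPM, and Tal1, Gata1, Etv2 and Cdh5 had no UMI. The 8 neurectoderm genes summed to 143 CPM against 169 CPM. In gated cells Nes was the most abundant at 139 CPM, and Pax6, Hes5, Zic1 and Six3 had no UMI. The 9 epiblast genes summed to 90.6 CPM against 79.7 CPM, with Dnmt3b at 51.0 CPM as the most abundant, while Pou5f1 was at 1.75 CPM and Nanog at 0.584 CPM. Of 4 epiblast genes at 10 CPM or more, Dnmt3b was at least 2-fold higher and Sox2 at least 2-fold lower (median log2 ratio -0.25). The 12 extraembryonic and lateral mesoderm factors summed to 46.5 CPM against 89.2 CPM, with Hand1 as the most abundant and Tbx4, Isl1 and Nkx2-5 without a UMI. The 7 primordial germ cell genes summed to 44.0 CPM against 23.0 CPM. In gated cells nearly all of this sum was Tfap2c, and Prdm14 and Dppa3 had no UMI. The 39 Hox genes summed to 47.4 CPM against 160 CPM, and 5 of the 6 Hox genes at 10 CPM or more were lower, as for Hoxa9 with 2 UMIs in gated cells against 11.7 CPM in the others. As the gate leaves out cells with Cdx2, the other kept cells were also summed without their Cdx2 cells, which gave 128 CPM of Hox genes. Amnion ectoderm shares Wnt6, Tfap2a and Gata3 with the surface ectoderm list, and of its other genes Bambi was at 129 CPM, Vtcn1 at 2.92 CPM and Gabrp at 1.31 CPM, while Isl1 and Tdo2 had no UMI.

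Against the 468 N-cadherin cells alone the differences were larger. Of 3261 genes, 120 were higher in the gated cells (3.68%) and 100 were lower (3.07%). Cldn7 was at 0.481 CPM in N-cadherin cells, which is 6 UMIs, with a ratio of 275 (126 to 749). Sfn, Ppl, Crb3 and Cldn6 followed, with 0.481, 2.32, 1.84 and 7.53 CPM in N-cadherin cells. With the minimum at 10 CPM, 399 of 8470 genes were higher (4.71%) and 341 lower (4.03%). Downward, Col1a1, Col3a1, Mfap4, Twist1 and Prrx1 were 51.3-, 33.1-, 30.8-, 22.7- and 19.2-fold lower in the gated cells. The list medians moved to a log2 ratio of 3.15 for tight junction genes, 4.06 for keratins, 4.07 for epithelial factors and -2.63 for mesenchyme genes. Cells with both cadherins lay between the groups for Epcam (222 CPM) and Krt8 (1010 CPM). They also lay between them for Vim (1652 CPM), whereas their Acta2 level (1695 CPM) was above that of N-cadherin cells (1512 CPM).

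Single cells were compared with each cell thinned to 10000 UMIs, which left out 8 gated cells and 31 of the other kept cells as too shallow. An Epcam UMI was then found in 96.5% of gated cells (99.1% without thinning), in 53.9% of the other kept cells and in 30.2% of N-cadherin cells, which should largely lack it and were sequenced to a similar depth. Krt8 was found in 87.6% of gated cells and 29.6% of N-cadherin cells. Trp63 was found in 32.9% of gated cells (28.6% to 37.4%, and 53.5% without thinning), against 2.59% of N-cadherin cells. Any of the 4 keratins Krt5, Krt14, Krt15 and Krt17 was found in 27.5% of gated cells (23.4% to 31.8%) and 1.94% of N-cadherin cells. Vim was found in 46.4% of gated cells and 98.9% of N-cadherin cells, and Twist1 or Prrx1 in 13.3% and 78.0%. Per cell, the median of Epcam was 4.65 UMIs per 10000 in gated cells against 0.138 in N-cadherin cells, and that of Vim was 0.482 against 19.3. Krt8 was detected in most gated cells but at uneven levels, with a 10th percentile of 0.426 and a 90th percentile of 45.9 UMIs per 10000. Detection was mixed for Vim, Trp63 and the stratified keratins.

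**Figure D3:**
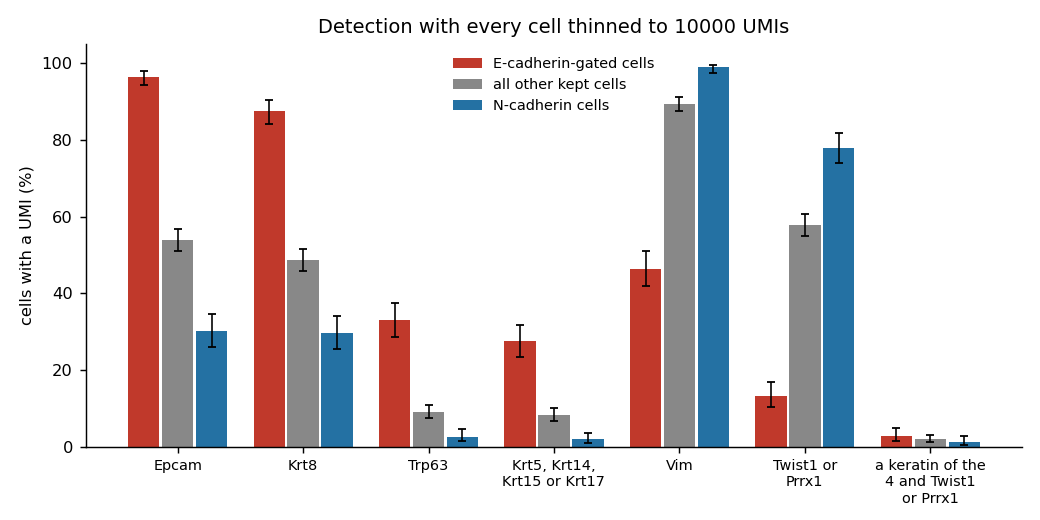
Share of cells with at least 1 UMI (y axis, %) of the genes or gene sets on the x axis, with each cell thinned to 10000 UMIs, in 459 gated cells, 1203 other kept cells and 463 N-cadherin cells; bars are shares and lines exact binomial 95% intervals. Epcam and Krt8 were found in most gated cells, at 96.5% and 87.6%, and Twist1 or Prrx1 in 13.3% of them against 78.0% of N-cadherin cells.

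The detection of Trp63 and of the stratified keratins coincided only in part. After thinning, Krt14 was found in 13.9% of the 151 gated cells with Trp63 and in 10.1% of those without it, and Krt17 in 11.9% and 13.96%. Krt15 was found in 12.6% of the cells with Trp63 and 4.87% of those without it. Krt17 was found in 42.3% of the 52 gated cells with Krt14 and in 9.58% of those without it. Krt14 and Krt17 thus shared cells more than either did with Trp63.

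The gated cells mostly lay next to each other when all variable genes but the gate genes were used. Each cell of the library was linked to its 15 nearest neighbors over 50 principal components of 2977 genes. Of the neighbors of gated cells, 59.4% were gated cells, which made up 27.5% of the library, and 2.16% were N-cadherin cells, which made up 27.5% as well. Of the neighbors of N-cadherin cells, 1.70% were gated cells. The remaining cells in none of the groups had 26.4% gated neighbors, Cdx2 cells 20.6% and cells with both cadherins 18.3%. Of the gated cells, 8 had no gated neighbor. Leiden clustering at resolution 0.33 gave 4 clusters, and 418 gated cells (89.5%) were in cluster 0, 30 in cluster 1, 3 in cluster 2 and 16 in the small cluster 3. Cluster 0 held 725 cells, of which 57.7% were gated, and its other cells were 217 of the remaining cells in none of the groups, 42 Cdx2 cells, 36 cells with both cadherins and 12 N-cadherin cells. This share depended on the settings of the clustering, since other settings divided the cells of cluster 0.

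The 30 gated cells in cluster 1 departed in part from their label. They had 1422 CPM of Vim and 248 CPM of Epcam, against 143 CPM and 523 CPM in the gated cells of cluster 0. Twist1 was at 16.8 CPM against 7.52 CPM, and Prrx1 was lower, at 5.92 CPM against 10.5 CPM. In N-cadherin cells, Twist1 and Prrx1 were at 190.6 and 186.9 CPM. Trp63 was at 1.97 CPM in them against 56.0 CPM, and Tfap2a at 34.5 CPM against 148 CPM. Cdkn1a was at 689 CPM against 142 CPM, Acta2 at 1662 CPM against 345 CPM, and Lce1h, a gene of the cornified envelope cluster, at 149 CPM against 4.13 CPM. Krt8 was at 2103 CPM and Krt18 at 2910 CPM, so that the summed counts of these cells held both simple keratins and vimentin. Whether single cells held both was not tested. These 30 cells were deeper, with a median of 34565 UMIs, and the part of doublets was not tested.

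The first principal component of all 1701 kept cells, which took up 5.10% of their variance, ordered the 451 gated cells outside the small cluster from contractile and keratin genes to cycle genes. The 151 cells lowest on it had 1094 CPM of Acta2, 3649 CPM of Tagln and 3390 CPM of Krt8. The middle 150 cells had 203, 1053 and 1445 CPM of these genes, and the 150 highest had 59.0, 385 and 824 CPM. Krt17 went from 80.2 to 14.4 and 2.76 CPM over these 3 groups, and Krt14 from 57.2 to 20.5 and 7.87 CPM. In contrast, Top2a, needed to separate chromosomes, went from 24.5 to 110 and 482 CPM and Mki67 from 9.99 to 45.8 and 222 CPM. The 16 G2/M genes summed to 391, 1057 and 3774 CPM. Epcam changed little, with 439, 509 and 545 CPM. Tfap2a was lowest at the contractile end, with 69.7, 158 and 185 CPM, and Trp63 highest in the middle, with 36.8, 75.02 and 46.4 CPM. The groups were defined from these expression values, so their order is a description.

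The medians of UMIs per cell in these 3 groups were 25732, 20886.5 and 28822. Nppb, which encodes a natriuretic peptide, was at 149, 23.7 and 9.05 CPM in the same order, and S100a6 at 1356, 401 and 235 CPM. Gas1, a membrane protein of Hedgehog reception, was at 78.4, 436 and 488 CPM. Wnt6 was at 213, 363 and 311 CPM. The summed levels of Krt14 and Krt17 were thus highest in the third with the highest levels of contractile genes and the lowest of cycle genes. Krt15 had another order, with 3.41, 26.3 and 19.5 CPM. Whether single cells held these keratins together with contractile genes was not tested.

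Within the gated cells, 16 stood apart in the small cluster, which held 32 cells in all and was found with the same 16 gated cells at all 5 settings of the clustering. Its leading genes were Gm9112, AU015836, Ascl2, Pparg, Elavl3, Pkib, Phlda2, Nxf7, Sct and Gata2, and it is left unnamed. In its gated cells, the imprinted growth inhibitor Phlda2 was at 4586 CPM and secretin (Sct) at 3137 CPM, against 101 and 34.7 CPM in the other gated cells. Ascl2, a helix-loop-helix factor known from trophoblast, was at 98.8 CPM against 1.43 CPM. Gata2 was at 147 CPM against 2.94 CPM, Plac1 at 211 CPM against 17.0 CPM and Peg10 at 1082 CPM against 108 CPM. Eomes, Elf5, Esrrb, Sox21, Gcm1, Tpbpa and Prl3d1, further genes of the trophoblast list, had no UMI in them. In the other gated cells these genes were at 2.19 CPM or less. As 5 UMIs of Tead4 were 10.98 CPM in the 16 cells, zeros and low levels in them rest on very few UMIs. Vim was at 2.20 CPM, Tagln at 4.39 CPM and Wnt6 at 10.98 CPM in these cells, while Krt14, Sfn and Tfap2a had no UMI. Epcam was at 391 CPM and Krt8 at 1458 CPM, and Tfap2c at 244 CPM exceeded the 31.6 CPM of the other gated cells. Their median depth was 22700.5 UMIs.

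Without the small cluster, 63 genes were higher in the gated cells and 53 lower, out of 3159. The log2 ratio of Sct was then 0.94 instead of 2.21, and Sct no longer passed 2-fold.

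As a share of all kept cells, the gate found fewer cells at each higher FGF2 dose. Without FGF2 it was passed by 274 of 1696 kept cells (16.2%). The shares at 0.75, 3 and 12 ng/ml were 6.35% (173 of 2725 cells), 1.88% (40 of 2125 cells) and 0.956% (23 of 2406 cells). With each cell thinned to 10000 UMIs before the gate, the shares were 17.9% with the FGFRi (16.1% to 19.8%) and 13.7% at 0 ng/ml (12.1% to 15.4%), followed by 6.39%, 2.03% and 1.96%. The gate leaves out cells with a Cdx2 UMI, which were 7.76% of the kept cells with the FGFRi, 68.9% without FGF2 and 89.3%, 94.8% and 91.3% at the higher doses. Among the cells without a Cdx2 UMI, the gated share was 29.8% with the FGFRi (27.5% to 32.1%), 52.0% without FGF2 (47.6% to 56.3%), and 59.5%, 36.0% and 10.95% at the higher doses. After thinning, these shares were 18.6%, 28.2%, 26.2%, 12.0% and 8.23%. The FGFRi library thus had the highest share of gated cells among all kept cells, but a lower one than the libraries at 0 and 0.75 ng/ml among cells without Cdx2. The median depth of kept cells was 24408 UMIs with the FGFRi and 29661.5 UMIs at 0 ng/ml. With 1 library per condition, an effect of the inhibitor and a difference between cultures cannot be told apart.

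Many epithelial genes were at similar levels in gated cells of all libraries. In the FGFRi library and at 0, 0.75, 3 and 12 ng/ml FGF2, Epcam was at 496, 499, 528, 524 and 559 CPM. Cldn7 was at 132, 143, 178, 155 and 122 CPM and Krt8 at 1840, 1702, 1716, 2003 and 2047 CPM. Between the FGFRi library and 0 ng/ml, the ratio of Epcam was 0.993 (0.956 to 1.03) and the median log2 ratio of 16 tight junction genes was -0.03, with only Cldn4 past 2-fold. Over all 8327 genes at 10 CPM or more in this comparison, 2.79% were higher and 1.14% lower.

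Of 7 surface ectoderm genes at 10 CPM or more, 3 (Trp63, Tfap2a and Krt14) were at least 2-fold higher in gated cells of the FGFRi library than at 0 ng/ml and none was lower. Of 10 contractile genes, 2 (Acta2 and Tagln) were higher and none was lower. Of 7 keratins 3 were higher, and of 9 mesenchyme genes 4, and none of either list was lower. The shares over all 8327 genes at 10 CPM or more were 2.79% higher and 1.14% lower. Trp63 was at 49.9 CPM in the FGFRi library (46.2 to 53.7), and at 20.8, 20.1, 6.63 and 6.14 CPM from the lowest to the highest dose. Tfap2a was at 134, 65.0, 60.01, 31.7 and 23.3 CPM. Neighboring libraries at 0 and 0.75 ng/ml, and at 3 and 12 ng/ml, overlapped in their intervals for both genes. Tfap2c had another order, with 38.7, 68.1, 47.4, 25.8 and 42.98 CPM. Krt14 was at 26.9, 5.05, 5.61, 11.04 and 1.23 CPM, and Krt17 at 30.7, 8.08, 3.10, 0.736 and 1.23 CPM. Wnt4 was at 246, 207, 131, 60.4 and 31.9 CPM, while Wnt6 showed no such order with 284, 208, 276, 219 and 212 CPM. Acta2 was at 429, 124, 10.3 and 4.42 CPM, with no UMI at 12 ng/ml (0 to 4.53 CPM), and Tagln at 1605, 520, 279, 139 and 112 CPM. The contractile list summed to 8023, 4410, 3366, 3255 and 2855 CPM in gated cells. It also differed in the other kept cells, with 10121, 3396, 1503, 1092 and 1352 CPM, and so was not particular to gated cells. Gated cells of the FGFRi library had Vim at 238 CPM, against 104, 70.7, 122 and 147 CPM. In the other kept cells, Vim was at 1590 CPM with the FGFRi and 360 CPM at 0 ng/ml. The mesenchyme list summed to 1746 and 1001 CPM in gated cells of these libraries, and to 4340 and 1176 CPM in the other kept cells. These differences were thus not particular to gated cells either. In the FGFRi library, 23 gated cells held 53.5% of the Vim UMIs of gated cells. Vim was at 143 CPM in its 418 gated cells of cluster 0 and at 1422 CPM in its 30 of cluster 1.

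Between gated cells of the FGFRi library and of 0 ng/ml, 62 of 3261 genes were higher with the FGFRi (1.9%) and 24 were lower (0.736%). The 5 largest ratios upward were those of Sostdc1, Igfbp2, Nppb, Gas1 and Loxl2. Sostdc1 was at 50.5 CPM in the FGFRi library and 2.58, 0.387, 0 and 0 CPM along the doses, with a ratio to 0 ng/ml of 19.6 (12.9 to 31.1). Igfbp2 (chromosome 1, 72824503 to 72852474) was at 2331 CPM and 299, 277, 137 and 47.9 CPM. In the other kept cells, Igfbp2 was at 1084 CPM with the FGFRi and 104 CPM at 0 ng/ml. Sostdc1 was at 10.96 and 1.09 CPM in the same cells. The differences of Igfbp2 and Sostdc1 between these libraries were thus not particular to gated cells. Gas1 was at 326, 71.7, 43.2, 4.42 and 3.68 CPM. The lysyl oxidase gene Loxl2, a collagen cross-linking enzyme, was at 77.2, 19.4, 22.1, 16.2 and 19.6 CPM, and so was high in the FGFRi library alone.

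**Figure D4:**
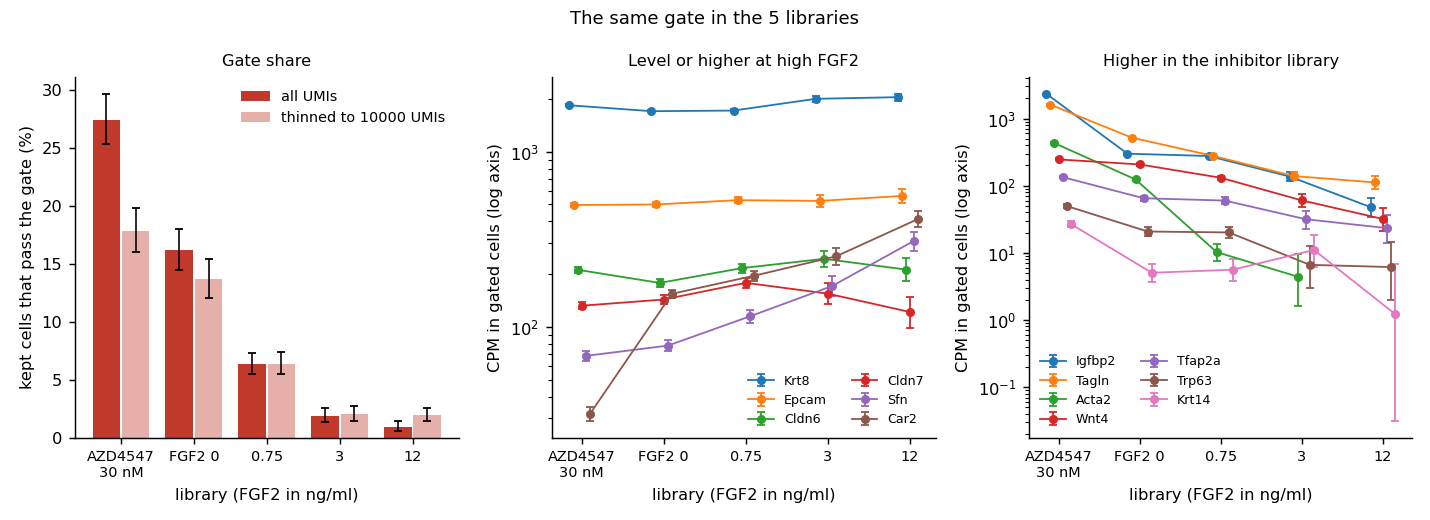
The same gate in the 5 libraries. Left, share of kept cells that passed it (%), with all UMIs and thinned to 10000 UMIs; center and right, level in gated cells in CPM (log axes), with exact 95% intervals and the libraries on the x axis. Acta2 at 12 ng/ml is at 0 and not drawn. Epcam lay between 496 and 559 CPM in all libraries, while Igfbp2 was at 2331 CPM in the FGFRi library and at 299 to 47.9 CPM in the others.

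The 5 lowest ratios to 0 ng/ml were those of Ascl2, Phlda2, Car2, Id1 and Nup62cl. Ascl2 was at 4.67 CPM in gated cells of the FGFRi library against 66.7 CPM at 0 ng/ml, and Phlda2 at 250 CPM against 1382 CPM (1358 to 1407). Gated cells with an Ascl2 UMI were 24 of 467 in the FGFRi library (5.14%) and 64 of 274 at 0 ng/ml (23.4%), and 2.61% and 18.4% after thinning. In gated cells without an Ascl2 UMI, Phlda2 was at 124 CPM against 286 CPM. When cells with an Ascl2 UMI were left out of both libraries, the number of lower genes went from 24 to 13 and that of higher genes from 62 to 50. Id1, a target of BMP signaling, was at 44.9 CPM in the FGFRi library and at 187, 209, 157 and 195 CPM along the doses. Without the cells with Ascl2, Id1 was at 39.6 CPM against 137 CPM. Car2, a carbonic anhydrase, was at 31.8 CPM in the FGFRi library, followed by 154, 196, 253 and 413 CPM.

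Cycle and FGF target genes were also compared between gated cells of the FGFRi library and of 0 ng/ml. With the minimum at 10 CPM, 232 of 8327 genes were higher (2.79%) and 95 lower (1.14%). All 16 S phase and all 16 G2/M genes had a ratio under 1, with median log2 ratios of -0.72 and -0.73, and 4 and 1 of them were at least 2-fold lower. The other kept cells differed in the same direction and so this was not particular to gated cells. In them, S phase genes summed to 906 CPM with the FGFRi against 1704 CPM, and G2/M genes to 1868 against 3620 CPM. Of 4 FGF and ERK targets at 10 CPM or more, Spred2 was lower by 2.39-fold, and the median log2 ratio was -0.83. Dusp6, a phosphatase induced by ERK, was at 5.91 CPM and at 8.98, 21.7, 26.5 and 33.2 CPM along the doses. Fgfr1 was at 37.6, 58.7, 85.2, 138 and 173 CPM, whereas Fgfr2 was at 44.7, 26.1, 23.0, 10.3 and 3.68 CPM. The order of the libraries was thus opposite for these receptors in gated cells.

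The same contrast of gated against other kept cells was taken in the 0 ng/ml library, where 63 of 3209 genes were higher (1.96%) and 42 lower (1.31%). Of the 63 genes higher in gated cells of the FGFRi library, 23 were also higher by the rule at 0 ng/ml, which is 36.5% of the genes of either library. Of the genes lower in gated cells, 14 were shared, 25.5% of those in the FGFRi library and 33.3% of those at 0 ng/ml. By the ratio alone, without the minimum of 50 CPM at 0 ng/ml, 31 of the 63 higher genes and 21 of the 55 lower genes were past 2-fold there. All 63 higher genes had a ratio above 1 at 0 ng/ml, and 47 of the 55 lower genes a ratio below 1. No share over all genes is given for the counts by ratio or side alone. The same gate was used in both libraries, so these counts are not read as a result. The other kept cells differ between the libraries, so that the same gate is compared with different cells.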

How the data were processed

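Each library was prepared from single cells with a droplet-based 3′ kit. The deposited values are UMI counts per gene and barcode, which the authors made with Cell Ranger (5.0.1 per the file headers, with mm10 named in the submitters' processing notes), for 32285 genes. The methods of the paper name an earlier version of Cell Ranger. Barcodes with at least 2500 detected genes and at most 10% mitochondrial UMIs were kept. Kept cells numbered 1701 with the FGFRi (50167816 UMIs over 2635 barcodes) and 1696, 2725, 2125 and 2406 at 0, 0.75, 3 and 12 ng/ml FGF2. The gate, gene lists and comparisons were chosen with earlier results of these data known. UMIs were summed over cells and divided by the total, and the 3 gate genes were left out of every comparison. Named genes were those of the lists described, the largest ratios among genes with at least 50 CPM and among those with 10 to 50 CPM, and the largest against N-cadherin cells and between gated cells of the FGFRi and 0 ng/ml libraries, with Hox genes. Lce1h and the genes of the small cluster were chosen after their values were seen. With 1 library per condition no test was made and no p-value is given. A floor of 3 counts corresponds to 0.219 CPM in gated cells. Neighbors and Leiden clusters were computed with scanpy 1.11.5 and leidenalg 0.10.2, other values with Python 3.11.15, scipy 1.17.1 and pandas 2.3.3, and TMM factors with edgeR 4.0.16. The calculations were tested on simulated data. Gene positions are from GENCODE vM21 on GRCm38, which held 32158 of the 32285 identifiers. Alternatives covered the gate, depth, filters, minimum level, ratio, normalization, weighting of cells and clustering. Some listed genes are not reported here.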

Additional observations from a re-analysis of the deposited data

How the results depend on the processing

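No paired analysis was possible because each condition had 1 library. With the gate at 1 Cdh1 UMI, its share was 34.0% with the FGFRi, 19.5% at 0, 7.49% at 0.75 and 1.66% at 12 ng/ml FGF2. With 3 Cdh1 UMIs it was 21.6% with the FGFRi, 13.4% at 0 and 5.10% at 0.75 ng/ml, and 43 genes were lower in gated cells of the FGFRi library than at 0 ng/ml. With the gate applied after thinning it was 17.9%, 13.7% and, at 12 ng/ml, 1.96%, and 36 genes were lower in gated cells than in the other kept cells. A minimum of 10 CPM gave 197 higher and 207 lower genes against the other kept cells, 399 and 341 against N-cadherin cells, and 232 and 95 against 0 ng/ml. Without a minimum these numbers were 1583 and 1378, 1484 and 1748, and 1146 and 975. A ratio of 1.5 gave 154 and 101, 231 and 205, and 204 and 155. With list genes from 1 CPM upward, 81 were lower, and the median log2 ratio of primordial germ cell genes turned from positive to -0.28, which rests on 4 genes instead of 1. The share of gated cells in the cluster holding most of them was 59.3% with 30 neighbors, 54.6% with 20 components, 32.5% at resolution 0.5 and 57.6% without the listed genes, against 89.5%, and 20 components gave 60.8% gated neighbors. The causes were not tested.

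Under the other settings, 43 to 72 genes were higher and 50 to 66 lower than in the other kept cells, and 113 to 128 higher and 94 to 102 lower than in N-cadherin cells. Alternatives chosen after seeing the data left out the small cluster (63 higher, 53 lower), Cdx2 cells (64 and 66), cells with both cadherins (65 and 52) or shared barcodes (64 and 56). As a share of cells without a Cdx2 UMI, also chosen after seeing the data, the gate took 29.8% with the FGFRi and 52.0%, 59.5%, 36.0% and 10.95% at 0, 0.75, 3 and 12 ng/ml. Without cells with an Ascl2 UMI, 13 genes were lower than at 0 ng/ml. Only the genes ranked by the largest ratios were followed singly. Of their 727 values past 2-fold, 725 stayed past it under these settings, and the exceptions were Krt15 and Sct. As these genes were picked for their large ratios, this does not cover genes near 2-fold. With TMM factors, 55 genes instead of 63 were higher than in the other kept cells.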

Other observations

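Further gene groups were measured in the gated cells. Of 13 annexin, S100 and Ahnak genes none passed 2-fold against the other kept cells, and the median log2 ratio was 0.22. Laminin Lama5, a basement membrane subunit of epithelia, was at 76.1 CPM against 37.6 CPM, and the integrins Itga3 and Itgb4, which anchor epithelial cells to it, at 65.7 and 14.9 CPM against 32.1 and 4.86 CPM. Lama1 and Nid1 were at least 2-fold lower. Nppa, a natriuretic peptide gene, was at 14.8 CPM in gated cells of the FGFRi library, with 0.224 CPM at 0 ng/ml FGF2 and no UMI at the higher doses. Ccnd1, a D cyclin, was at 15.3 CPM in gated cells of the FGFRi library and at 42.1, 90.01, 180 and 274 CPM from the lowest to the highest FGF2 dose.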
